A study of Saccharomyces cerevisiae with 4 samples.

Results

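Chromosome I is the smallest chromosome of the budding yeast Saccharomyces cerevisiae, and its genes are described here in the order in which they lie on it, from the left end to the right. A gene belonged when its systematic name starts with YAL (left arm) or YAR (right arm), the names that mark chromosome I, and when it had a probe set on the array. These conditions held for 90 genes, of which 20 were left out by name, and the other 70 of 5449 S. cerevisiae genes on the array are the subject. The genes were thus chosen by name and place, but the chromosome itself was selected on the signals of these same 4 arrays, with differences between the strains already known. Every difference and every call below is therefore a description and no test of the chromosome. Of the 70 genes, 64 were bright enough to be fitted, and each of them is represented by 1 probe set.

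A pair of strains grown in YPD, a rich glucose medium, was compared, with no treatment named in the labels. X2180 is a diploid laboratory strain related to S288C, the strain of the reference genome, and NBRC1950 is a strain of a Japanese culture collection, for which the labels give no genotype or ploidy. RNA was taken up in hot phenol and enriched for poly(A) tails. Each strain was measured on 2 Affymetrix Yeast Genome 2.0 arrays, from experiments that the design text calls independent. The arrays are of 1 colour and give 1 intensity per probe set, a group of short probes against the same transcript. The series title concerns ergosterol and tolerance of vanillin, but neither bears on the choice of these genes. Before scaling, the median deposited intensity of the S. cerevisiae probe sets ran from 894 to 1171 over the 4 arrays. The arrays measured RNA, and the number of copies of chromosome I in either strain was not measured.

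Yeast genes lie close together, and neighbours that are transcribed away from each other share the stretch of DNA between their start sites. The inner part of chromosome I holds genes of many unrelated processes, among them the kinetochore, mitotic exit, messenger RNA turnover, protein secretion and mitochondrial shape. Its ends carry families of similar genes that also occur at other chromosome ends, such as flocculins and seripauperins, small cell wall proteins known for low expression in rich aerobic cultures.

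The inner genes of chromosome I gave mostly higher signals in NBRC1950 than in X2180, and none of the few end genes that were kept was called higher. Of 16 fitted end genes of the chromosome, 7 are described here and the others are among those left out by name. A gene is said to be called higher or lower when its adjusted p was under 0.05 in limma, fitted over all 5316 tested genes of the array. Of the 64 fitted chromosome I genes, 41 were called higher in NBRC1950, 6 were called lower and 17 were not called. Among those called lower, SEO1 was bright enough to be fitted through its X2180 signals alone, so that its call could only be lower. It is also in the lower counts given below for end genes, scalings, left-out arrays, function lists and large differences. Over all tested genes, 47.2% were called, 20.4% higher and 26.8% lower. The 4 arrays separated the strains upwards, with both NBRC1950 signals above both X2180 signals, for 45 of the 64 genes, and for 33.3% of all tested genes. Since the chromosome was picked with these differences in view, nothing is read from setting these shares side by side.

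The median difference of the 64 genes was 0.44 on the log2 scale, NBRC1950 minus X2180, a 1.35-fold higher signal. The median over all tested genes was -0.05. The middle part of the chromosome I genes (between the quartiles) lay between 0.06 and 0.79, a range of 0.73 that compares with 0.49 over all tested genes. The single differences ran from -2.89 to 1.39, and 49 of the 64 were above 0.

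Arrays of the same strain showed no such shift along the chromosome. From array 1 to array 2 of X2180 the 64 genes had a median difference of 0.00796, an SD of 0.18 and extremes of -0.44 and 0.58. For the NBRC1950 arrays these values were 0.00291, 0.19, -0.95 and 0.49. Each NBRC1950 array set against each X2180 array gave a chromosome I median between 0.42 and 0.50, with 48 to 52 of 64 genes above 0. The median of all tested genes in these array pairs lay between -0.07 and -0.02. All 4 pairings of arrays put the chromosome I median above that of all tested genes. They reuse the same 4 arrays on which the chromosome was selected, and so are no separate support.

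**Figure D1:**
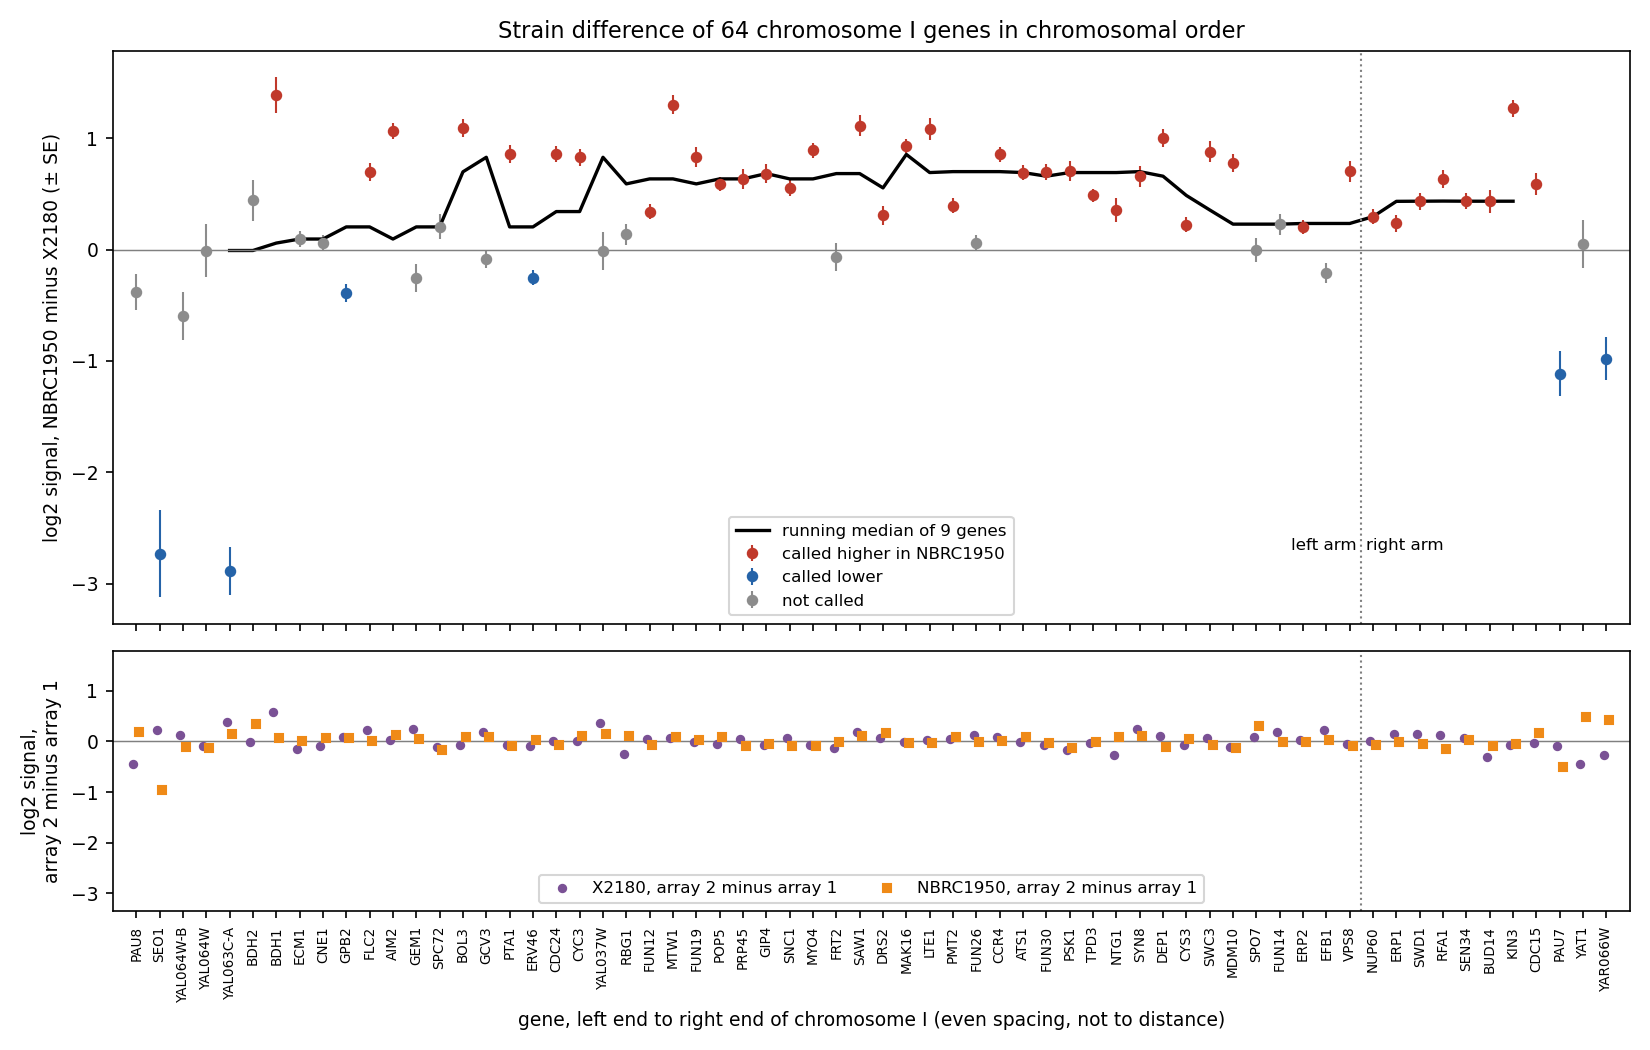
Upper panel: log2 signal difference, NBRC1950 minus X2180, with its SE, for the 64 fitted chromosome I genes at even spacing from the left end to the right end; colours give the call and the line is the median of 9 consecutive genes. Lower panel: difference between the 2 arrays of each strain for the same genes and on the same scale. The line stays at or above -0.01 and reaches 0.86, while the array-to-array differences lie around 0.

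Among the 10 outermost annotated reading frames of each arm were 7 of the 64 genes, of which 0 were called higher, 3 lower and 4 not, with a median difference of -0.60. The 57 genes inside them had a median of 0.55, a 1.47-fold higher signal in NBRC1950, with 41 called higher and 3 lower. On the other nuclear chromosomes the 196 outermost genes had a median of -0.30 and the 5036 inner ones one of -0.05. The end medians were below the inner ones in both, whereas the inner medians of chromosome I and of the rest stood 0.55 against -0.05. With the left-out genes put back, an alternative added after seeing the data, the 16 end genes had a median of -0.67, with 4 called higher and 8 lower, and the 68 inner ones a median of 0.44, with 44 higher and 7 lower. The end genes then ran from -4.13 to 4.98, so that the absence of higher calls holds for the kept end genes alone.

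The medians of both arms were above 0. The 53 left arm genes had a median of 0.49 with 33 called higher, and the 11 right arm genes had a median of 0.43 with 8 called higher. The right arm value rests on few genes and was 0.31 without X2180 replicate 2. The median of 9 genes, consecutive among those described, was above 0 in 54 of 56 windows and at least 0.5 in 27 of them (48.2%). These windows, and the stretches below, skip the genes left out by name, whereas those on other chromosomes hold all fitted genes. The shares thus stand for unlike sets, and windows with the left-out genes were not computed. Of 5112 windows of the same length on the other nuclear chromosomes, 38 (0.743%) reached 0.5, and 25 of these 38 were on chromosome V. On chromosome V 10.2% of windows reached 0.5 and 92.7% were above 0, against 96.4% above 0 on chromosome I. The longest unbroken stretch of fitted genes above 0 ran over 17 genes from SAW1 to MDM10 in the middle of the left arm, with 16 of them called higher and a median of 0.70. Elsewhere the longest held 15, on chromosome V. These lengths turn on single genes near 0, such as FUN26, and on the scaling. Without X2180 replicate 1 the longest stretches held 15 genes on chromosome I and 11 elsewhere. They held 33 and 25 without further scaling, 33 and 15 with quantile normalization, and 56 and 81 with scaling over all probe sets, where the longer one was on chromosome V.

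Set beside the other 15 nuclear chromosomes, chromosome I had the highest median, also with quantile normalization (0.55 against 0.30 for chromosome V). These chromosome I medians cover the genes described alone, and with the left-out genes put back the main one was 0.38. Chromosome V came next, with a median of 0.23 over 253 genes and 122 called higher. The remaining chromosomes had medians from -0.10 to -0.02. No test was made of the difference between chromosomes.

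**Figure D2:**
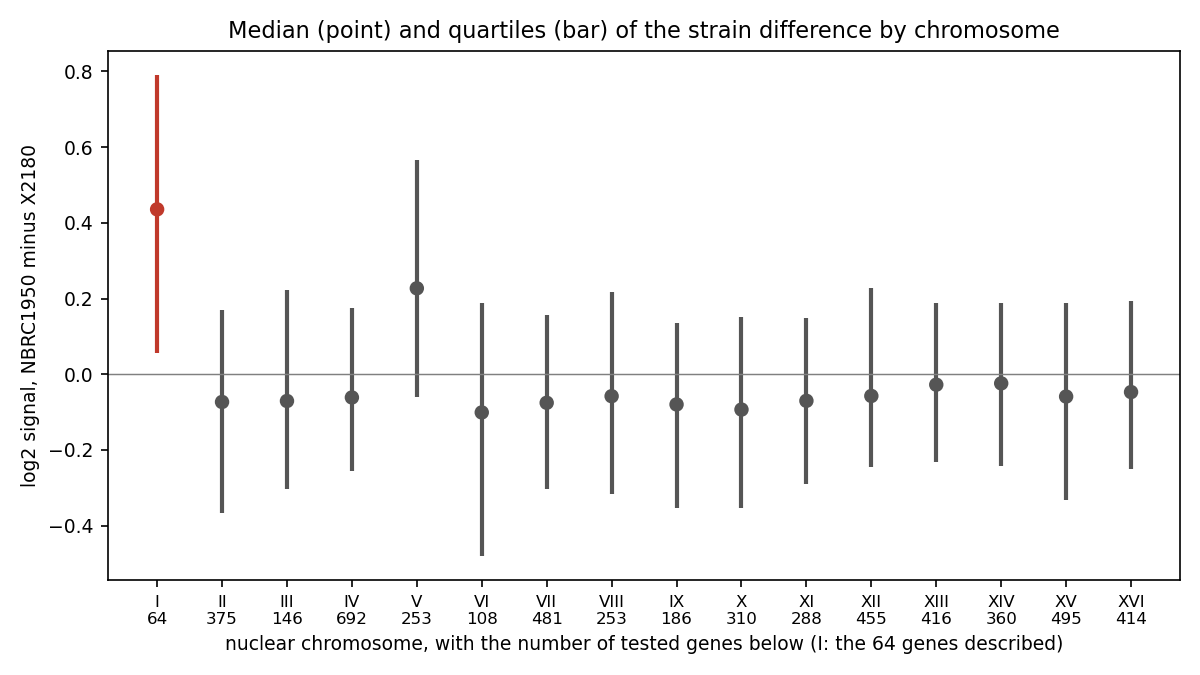
Median (point) and quartiles (bar) of the log2 signal difference, NBRC1950 minus X2180, for the tested genes of each nuclear chromosome; chromosome I (red) shows the 64 genes described. Chromosome I lies at 0.44 and chromosome V at 0.23, and the other medians lie just below 0.

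The size of these values depended on how the arrays were scaled to each other. With the arrays scaled over all probe sets instead, the chromosome I median was 0.98 and that of all tested genes 0.50, with 55 of the 64 genes called higher and 4 lower. Without further scaling the medians were 0.64 and 0.16, with 37 and 4 calls, and with quantile normalization 0.55 and 0.02, with 42 and 5. Apart from quantile normalization, a scaling moves every gene of an array alike and so cannot change the distance of chromosome I from other genes. That distance, between the median of the 64 genes and that of all tested genes, was 0.48, and 0.53 with quantile normalization. Of the 41 genes called higher, 37 were so under all 4 scalings, and of the 6 called lower, 4 were (SEO1, YAL063C-A, PAU7 and YAR066W).

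Leaving out 1 array at a time left 34 of the 41 higher calls and 4 of the 6 lower calls in place under all 4 omissions. The other 9 called genes, most of them with small differences, lost their call in at least 1 of them. Without X2180 replicate 1, calls were lost for DRS2 (0.27, from 0.31), YAR066W (-0.85, from -0.98). Without X2180 replicate 2, calls were lost for DRS2 (0.34, from 0.31), NTG1 (0.22, from 0.36), CYS3 (0.19, from 0.22). Without NBRC1950 replicate 1, calls were lost for FUN12 (0.31, from 0.34), CYS3 (0.25, from 0.22), ERP2 (0.20, from 0.21), NUP60 (0.26, from 0.30), ERP1 (0.23, from 0.24), ERV46 (-0.24, from -0.25). Without NBRC1950 replicate 2, calls were lost for DRS2 (0.22, from 0.31), NTG1 (0.32, from 0.36), CYS3 (0.20, from 0.22), ERP2 (0.21, from 0.21), ERP1 (0.24, from 0.24), ERV46 (-0.26, from -0.25). Calls were also gained: without X2180 replicate 1, RBG1 was called higher (0.27, from 0.14) and EFB1 lower (-0.32, from -0.21), and without X2180 replicate 2, FUN14 was called higher (0.33, from 0.23) and PAU8 lower (-0.60, from -0.38).

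The counts by function stand beside 20.4% called higher and 26.8% lower over all tested genes. Of the 57 inner chromosome I genes, 41 were called higher and 3 lower. Of 10 genes of the cell cycle, cell polarity and the spindle, 9 were called higher in NBRC1950 and 0 lower. Their median was 0.77. MTW1, a kinetochore protein that helps to link chromosomes to the spindle, gave signals of 346 and 362 in X2180 and 849 and 898 in NBRC1950. KIN3, a protein kinase of the NIMA family, gave 647 and 616 in X2180 and 1552 and 1489 in NBRC1950. LTE1, which promotes exit from mitosis, gave 222 and 227 in X2180 and 482 and 469 in NBRC1950. In all 3 both NBRC1950 arrays lay far above both X2180 arrays, and the log2 differences were 1.30 ± 0.09 (SE), 1.27 ± 0.07 (SE) and 1.08 ± 0.10 (SE).

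MYO4, a myosin that carries messenger RNA into the bud, was higher by 0.89 ± 0.07 (SE) and CDC24, the exchange factor that activates the polarity switch Cdc42, by 0.86 ± 0.07 (SE). GIP4, which interacts with protein phosphatase 1, was higher by 0.68, CDC15, a kinase of the mitotic exit network, by 0.59, TPD3, the scaffold of protein phosphatase 2A, by 0.49 and BUD14, a partner of the same type 1 phosphatase, by 0.43. SPC72, which anchors microtubules at the spindle pole body, was the member not called, at 0.20, with signals of 292 and 272 in X2180 and 345 and 306 in NBRC1950. Its arrays did not overlap between strains, but the gap was small.

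All 7 genes of chromatin and DNA repair were called higher in NBRC1950, at a median of 0.70. SAW1, which brings a nuclease to DNA flaps during repair by annealing, gave signals of 507 and 580.1 in X2180 and 1129 and 1218 in NBRC1950, a difference of 1.11 ± 0.09 (SE). DEP1, a subunit of the histone deacetylase complex Rpd3L, gave 885 and 948 in X2180 and 1905 and 1768 in NBRC1950, a difference of 1.00 ± 0.08 (SE). In these genes the lower of the NBRC1950 arrays lay clearly above the higher of the X2180 arrays. SWC3, of the SWR1 remodelling complex, was higher by 0.88, FUN30, a chromatin remodeller, by 0.70, RFA1, the largest subunit of the single-strand binding protein RPA, by 0.64 and SWD1, of the histone methylation complex COMPASS, by 0.43. NTG1, a glycosylase that removes oxidized bases, had the smallest difference of the list, 0.36 ± 0.11 (SE), with signals of 613 and 507 in X2180 and 694 and 734 in NBRC1950.

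Genes of RNA processing and turnover were called higher for all 6 members, at a median of 0.61. PTA1, of the complex that cleaves and polyadenylates messenger RNA, gave signals of 584 and 559.8 in X2180 and 1072 and 1007 in NBRC1950, a difference of 0.86 ± 0.08 (SE). CCR4, the main deadenylase of the cell, gave 1596 and 1690.0 in X2180 and 2955 and 2988 in NBRC1950, a difference of 0.86 ± 0.07 (SE). Both genes showed tight pairs of arrays within each strain. PRP45, a splicing factor, was higher by 0.64, POP5, a shared subunit of RNase P and RNase MRP, by 0.59 and SEN34, of the transfer RNA splicing endonuclease, by 0.44. NUP60, a nuclear pore protein, had the smallest difference, 0.30 ± 0.06 (SE), with signals of 2274 and 2295 in X2180 and 2878 and 2735 in NBRC1950.

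Translation and ribosome synthesis was represented by 6 genes, of which 3 were called higher and 0 lower, at a median of 0.24. MAK16, needed to assemble the large ribosomal subunit, gave signals of 1627 and 1613 in X2180 and 3128 and 3045 in NBRC1950, a difference of 0.93 ± 0.06 (SE). ATS1, named as a suppressor of a tubulin mutation, gave 1218 and 1200.4 in X2180 and 1898 and 2011 in NBRC1950, a difference of 0.69 ± 0.07 (SE). FUN12, the initiation factor that joins the ribosomal subunits, was higher by 0.34. The 3 genes not called were RBG1, a GTPase that associates with ribosomes (0.14), ECM1, which acts in the export of the large subunit (0.10), and EFB1, an exchange factor of translation elongation (-0.21). EFB1 gave signals of 11747 and 13709 in X2180 and 10898 and 11046 in NBRC1950, and its NBRC1950 arrays lay below those of X2180. ECM1 gave 3085 and 2797 in X2180 and 3138 and 3139 in NBRC1950, with the NBRC1950 arrays only just above.

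Of 12 genes of secretion and endomembranes, 8 were called higher, 1 lower and 3 not, at a median of 0.27. VPS8, of the CORVET complex that tethers endosomes, gave signals of 297 and 288 in X2180 and 491 and 463 in NBRC1950, a difference of 0.70 ± 0.10 (SE). FLC2, a membrane protein linked to FAD transport into the endoplasmic reticulum, gave 2112 and 2457 in X2180 and 3691 and 3704 in NBRC1950, a difference of 0.70 ± 0.08 (SE). SYN8, an endosomal SNARE, was higher by 0.66 and SNC1, a SNARE of secretory vesicles, by 0.55. These 4 led the list, and the other higher members had smaller differences. PMT2, which adds mannose to proteins, was higher by 0.39, DRS2, a phospholipid flippase, by 0.31, and ERP1 and ERP2, of the p24 protein family, by 0.24 and 0.21.

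ERV46, a protein of vesicles that run between the endoplasmic reticulum and the Golgi, was the member called lower, at -0.25 ± 0.07 (SE), with signals of 5194 and 4848 in X2180 and 4177 and 4256 in NBRC1950. Its sign depended on the scaling: it stood at 0.29 and was called higher with scaling over all probe sets, at -0.04 without further scaling and at -0.14 with quantile normalization. Those not called were CNE1, the yeast calnexin (0.06), FRT2, a tail-anchored protein of the endoplasmic reticulum (-0.07), and SPO7, a subunit of the phosphatase that controls phosphatidic acid use (-0.01). SPO7 gave 1163 and 1243 in X2180 and 1074 and 1335 in NBRC1950, and its strains overlapped.

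Among 7 genes of mitochondria, 3 were called higher and 0 lower, at a median of 0.23. BOL3, which helps to insert iron-sulfur clusters into mitochondrial proteins, gave signals of 611 and 583 in X2180 and 1230.0 and 1315 in NBRC1950, a difference of 1.09 ± 0.08 (SE). CYC3, the lyase that attaches heme to cytochrome c, gave 834 and 835 in X2180 and 1425 and 1543 in NBRC1950, a difference of 0.83 ± 0.08 (SE). MDM10, of the complex that ties mitochondria to the endoplasmic reticulum, was higher by 0.78. The members not called were FUN14, a mitochondrial membrane protein (0.23), YAT1, a carnitine acetyltransferase (0.05), GCV3, the H protein of glycine cleavage (-0.08), and GEM1, a GTPase of the outer membrane (-0.25). YAT1, near the right end, gave 156 and 115 in X2180 and 117 and 163 in NBRC1950, so that the strains overlapped.

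Metabolic enzymes were 6 genes, GCV3 and YAT1 again among them, with 3 called higher and 0 lower and a median of 0.33. BDH1, a butanediol dehydrogenase, had the largest positive difference of the chromosome I genes described, 1.39 ± 0.16 (SE), with signals of 1636 and 2437 in X2180 and 5098 and 5373 in NBRC1950. The X2180 arrays of this gene lay further apart than those of most others, but both stayed far below NBRC1950. AIM2, named for altered inheritance of mitochondria, gave 2892 and 2967 in X2180 and 5862 and 6397 in NBRC1950, a difference of 1.06 ± 0.07 (SE). CYS3, which makes cysteine from cystathionine, was higher by 0.22. BDH2, the neighbour and relative of BDH1, stood at 0.44 ± 0.18 (SE) and was not called, with signals of 75.6 and 75.5 in X2180 and 91.1 and 116 in NBRC1950.

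The 4 genes of transporters and signalling went both ways, with 1 called higher and 2 lower. SEO1, a putative permease near the left end, gave signals of 47.9 and 56.2 in X2180 and 10.9 and 5.61 in NBRC1950. Neither NBRC1950 array exceeded the background limit, so only a bound can be given, at least 3.30-fold lower in NBRC1950. SEO1 was bright enough to be fitted through X2180 alone, so its call could only be lower. PSK1, a kinase with a PAS domain, gave 716 and 637 in X2180 and 1157 and 1052 in NBRC1950, a difference of 0.71 ± 0.09 (SE). GPB2, which restrains signalling by protein kinase A, was called lower, at -0.39 ± 0.08 (SE), with signals of 816 and 871 in X2180 and 627 and 661 in NBRC1950. It stood at 0.16 and was not called with scaling over all probe sets. FUN26, a nucleoside transporter of the vacuole, gave 1940.3 and 2130.2 in X2180 and 2125 and 2123 in NBRC1950, with overlapping strains and a difference of 0.06. The list median was -0.16, but 0.38 with scaling over all probe sets and 0.05 with none. A stricter background filter left SEO1 unfitted and gave a list median of 0.06, with 1 called higher and 1 lower.

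The seripauperins and the uncharacterized reading frames included none that was called higher. PAU7, on the right arm, gave signals of 143 and 135 in X2180 and 76.3 and 54.0 in NBRC1950, a difference of -1.11 ± 0.20 (SE), and was lower under every scaling. PAU8, near the left end, gave 317 and 234 in X2180 and 196 and 223 in NBRC1950, a difference of -0.38 ± 0.16 (SE) that was not called and that stood at 0.17 with scaling over all probe sets. Both have probe sets of a type shared by similar sequences, so the signals can also come from other members of this large family. YAL063C-A, of unknown function, was called lower at -2.89 ± 0.21 (SE), with signals of 144 and 188 in X2180 and 21.1 and 23.3 in NBRC1950. The NBRC1950 values of this gene were close to the background limits of 14.9 and 16.6, and the size of its difference is accordingly uncertain. YAR066W, whose probe set is also shared, gave 179 and 148 in X2180 and 71.2 and 95.8 in NBRC1950, a difference of -0.98 ± 0.19 (SE).

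YAL064W-B (-0.60), YAL037W (-0.01) and YAL064W (-0.01) were not called. YAL064W gave 35.7 and 33.7 in X2180 and 36.0 and 33.1 in NBRC1950. These dim signals were close to each other and above the background limits of the 4 arrays, which ran from 14.9 to 18.2. The median of the 5 uncharacterized reading frames was -0.60, but 0.07 with quantile normalization. FUN19, a gene in no list, lay in the inner part and was called higher, at 0.83 ± 0.09 (SE). The 6 genes that were too dim to be fitted were YAL067W-A, YAL065C, TDA8, YAL037C-A, LDS1 and YAR035C-A, with signals from 0.36 to 26.2. Of these 6, TDA8, LDS1, YAL067W-A and YAR035C-A (4 genes) exceeded the background limit on no array. With these 6 included and no filter on dim probe sets, the chromosome I median was 0.41 over 70 genes, with 41 called higher and 8 lower.

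**Figure D3:**
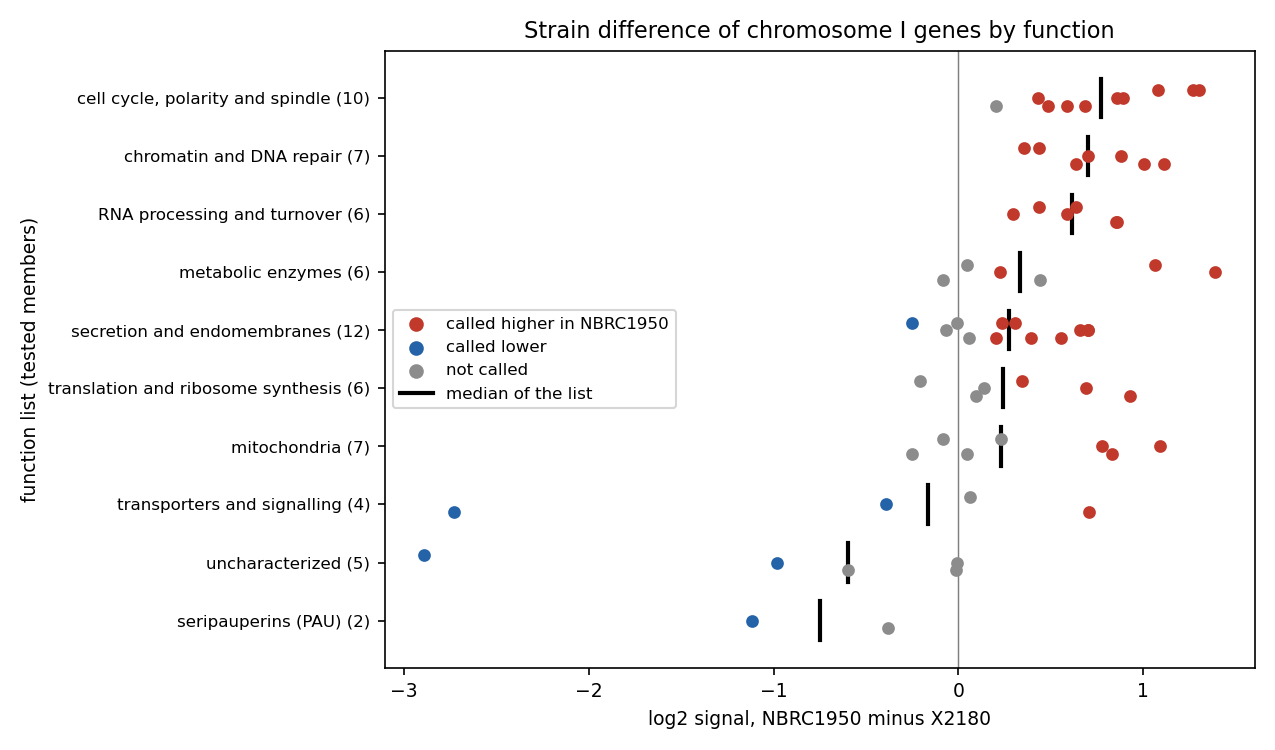
Log2 signal difference, NBRC1950 minus X2180, of the fitted chromosome I genes in each function list, coloured by call, with the list median as a black bar; the number of genes is in brackets and a gene may stand in more than 1 list. Cell cycle, chromatin and RNA genes lie entirely above 0, and the seripauperins and uncharacterized frames lie below it.

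**Figure D4:**
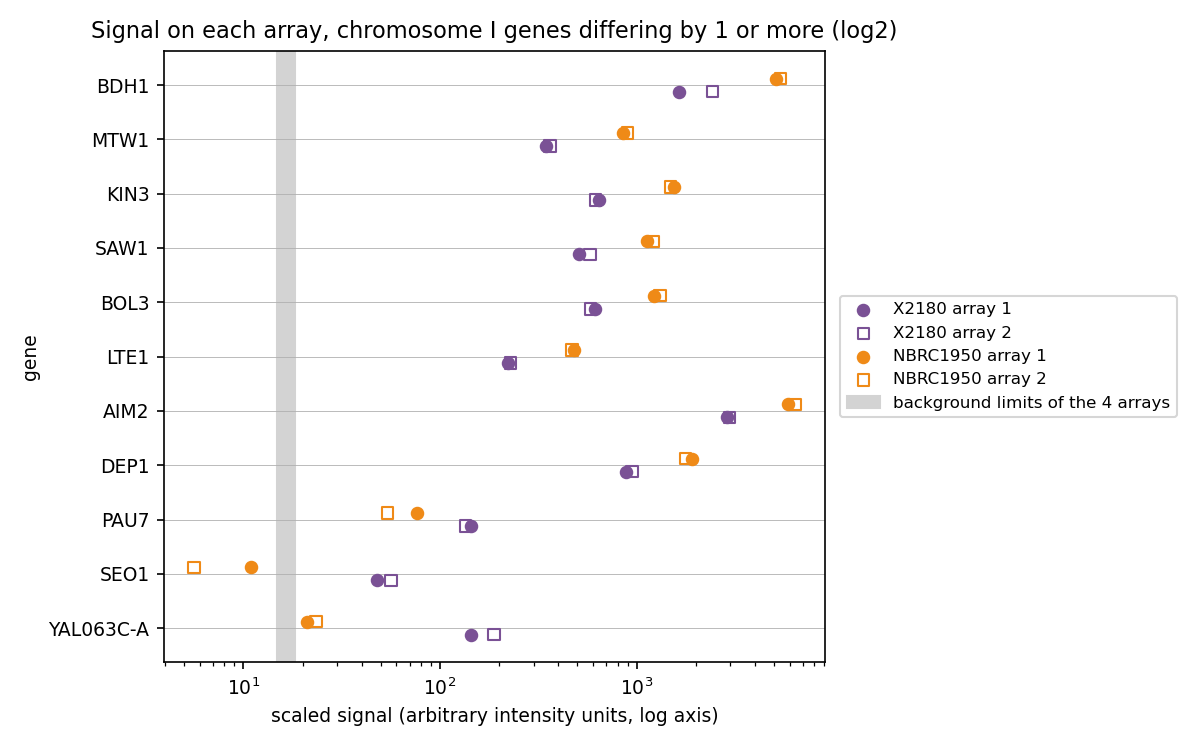
Scaled signal on each of the 4 arrays, on a log axis, for the 11 chromosome I genes that were called, did not overlap between strains and had a log2 difference of 1 or more in size; the grey band spans the background limits. For the 8 higher genes both NBRC1950 arrays lie above both X2180 arrays, which are widest apart for BDH1, and SEO1 lies below the band in NBRC1950.

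The function lists were chosen with these data known. Of the names in them, BOL1 and IMD1 matched none of the genes described and were not analysed here. The name AIM1 was taken as BOL3, which is described above. Differences of at least 2-fold were found for part of the 64 genes: 8 were called higher and 3 lower by 1 or more on the log2 scale, where 2.63% and 4.76% of all tested genes were. With the left-out genes put back, chromosome I held 14 such higher and 9 such lower genes of 84.

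The difference varied with the brightness of the probe set. With all tested genes divided into 4 classes of equal size by mean signal, the chromosome I genes had medians of -0.01 in the dimmest (18 genes), 0.83 in the second (13), 0.64 in the third (17) and 0.27 in the brightest (16). Genes of the other nuclear chromosomes had medians of -0.08, 0.04, -0.02 and -0.10 in the same classes. The 2 middle classes thus had the highest medians on chromosome I. The part of brightness in the differences, also in those between the function lists, was not tested. Across genes, which share arrays and are not independent, the Spearman correlation of difference and mean signal was 0.18 for the 64 genes, -0.12 for the 57 inner ones among them and -0.04 for 5232 genes elsewhere. The sign for the 64 genes thus rests on the 7 end genes. The correlation of difference and coding length was 0.28, 0.16 and 0.11 for the same sets.

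**Figure D5:**
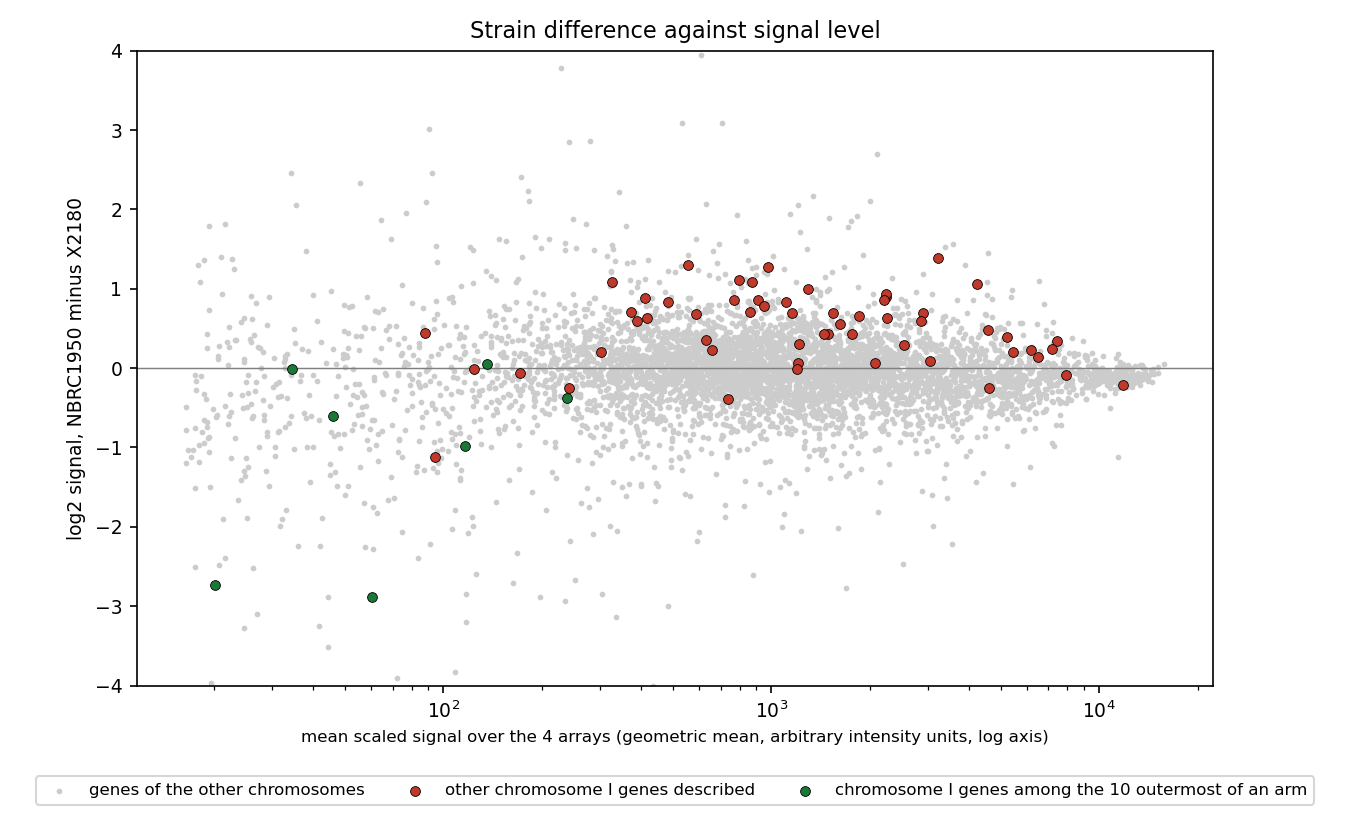
Log2 signal difference, NBRC1950 minus X2180, against the mean scaled signal over the 4 arrays (log axis); grey points are genes of the other chromosomes, red points the inner chromosome I genes and green points those among the 10 outermost of an arm. The red points lie mostly above 0; 50 grey points lie outside the plotted range of 4 log2 units in either direction.

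Neighbouring genes were also set side by side. Of 47 pairs of adjacent annotated genes in which both were fitted and described here, 33 (70.2%) had both differences above 0. Elsewhere, where no gene was left out by name, 960 of 4718 pairs of adjacent fitted genes (20.3%) had. Such shares depend on how many single genes were above 0, which was 76.6% of the 64, 84.2% of the 57 inner ones and 44.2% elsewhere. Whether neighbours went together beyond that was not tested. Across pairs, which share genes, the Spearman correlation between the differences of neighbours was -0.10 on chromosome I and 0.07 elsewhere. The median gap between the differences of neighbours was 0.45 on chromosome I and 0.37 elsewhere. Divided by orientation, the median gap was 0.22 for 10 divergent pairs, 0.68 for 26 tandem pairs and 0.15 for 11 convergent pairs. Elsewhere these gaps were 0.35, 0.39 and 0.37. In the same order, the Spearman correlations were -0.33, -0.23 and 0.75 on chromosome I, and 0.12, 0.04 and 0.07 elsewhere. The pairs overlap in their genes, those of each orientation on chromosome I are few, and neither the gaps nor the correlations were tested.

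The closest divergent pair was that of ATS1 and FUN30, whose differences were 0.69 and 0.70. FUN30 gave signals of 929.6 and 885 in X2180 and 1492 and 1457 in NBRC1950. Next came GIP4 and SNC1, at 0.68 and 0.55, a gap of 0.13. GIP4 gave 476 and 452 in X2180 and 756 and 734 in NBRC1950. SNC1 gave 1305 and 1359.5 in X2180 and 2025 and 1890.1 in NBRC1950. In both pairs all NBRC1950 arrays exceeded all X2180 arrays for both genes. The widest gaps between divergent neighbours were those of PTA1 and ERV46 (1.11) and of MYO4 and FRT2 (0.96). MYO4 gave 1684 and 1606 in X2180 and 3147 and 2964 in NBRC1950, with all NBRC1950 arrays higher. FRT2, its neighbour, gave 184 and 167 in X2180 and 167 and 167 in NBRC1950 and was not called.

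The calls rest on 2 arrays per strain, and probes mismatched to NBRC1950 were not masked, so the part of sequence differences in these signals was not tested. A sign of RNA quality, the log2 difference between the 3' and the 5' control probe set of a transcript, moved with the strain for SRB4, at 2.05 and 2.18 in X2180 and 2.66 and 2.83 in NBRC1950. It was 0.20 and 0.26 in X2180 and 0.33 and 0.31 in NBRC1950 for ACT1, and the strains overlapped for SPT15 and WBP1. Their part in the chromosome I values was not tested. Strain and culture state at harvest cannot be told apart, since the labels give no growth phase.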

How the data were processed

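Messenger RNA of 2 X2180 and 2 NBRC1950 cultures was measured. The authors deposited 1 linear intensity per probe set and array. GCOS is the tool named in the submitters' processing notes, and the sources used here do not state its version, its scaling or any masking. The array annotation, joined by gene identifier to the R64 RefSeq gene table, named 1 S. cerevisiae gene for 5498 of 10928 probe sets. That table gave symbols and gene order, and the 5217 probe sets naming no S. cerevisiae gene and no control gave the background.

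Each array was scaled to a median of 974 over the S. cerevisiae probe sets, floored at 4.57 (the background median) and converted to log2. Probe sets with a mean above 16.4, the geometric mean over arrays of the 90th background percentile, were fitted in limma 3.58.1 under R 4.3.3 (lmFit, eBayes with trend, no covariates), and p-values were adjusted by Benjamini-Hochberg over 5358 probe sets. Fold changes are log2 differences, NBRC1950 minus X2180, and signals are scaled intensities. The brightest probe set stood for a gene, which left 5316 genes. For a gene above the 90th background percentile on neither NBRC1950 array, a lower bound of the fold is given: the X2180 mean log2 signal against the higher of that limit and the gene's own signal, array by array. The fit was tested on simulated data. Only 2 arrays per strain limit the precision. The p-values set each difference against the spread between arrays of a strain, drawn towards a trend over all fitted probe sets.

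Values of all arrays are given for called, non-overlapping genes that differ by 1 or more, for the 2 largest called and the smallest difference in each function list, and for the 2 closest and 2 widest divergent pairs; FUN19, BDH2 and others are given to account for every gene. Genes and lists were chosen with earlier results of these data known. Other scalings, filters, floors, tests, a block and omitted arrays were tried. Promoter motifs were not analysed here. The same-numbered arrays were not taken as pairs: the correlation of their deviations was 0.059.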

Additional observations from a re-analysis of the deposited data

How the results depend on the processing

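The chromosome I median of 0.44 moved with the scaling, to 0.98 (all probe sets), 0.64 (none) and 0.55 (quantile). Chosen after seeing the data, putting the left-out genes back gave 0.38 and inner genes alone 0.55. The count of called genes, 2509 in all, was 4289 scaled to all probe sets (92.5% of them higher, against 43.2%), 1308 without scaling (70.7% higher) and 530 with the methods' t-test after Benjamini-Hochberg adjustment. That test called 18 chromosome I genes higher and 1 lower, and, without adjustment, 37 and 6. The median gap between neighbours was 0.58 without the filter, against 0.45. With 1 array left out, called genes numbered 1864 to 2113, chromosome I genes called higher 36 to 41 and lower 5 to 7, and the median 0.44 to 0.47; the lone array of a strain was then taken to vary like those of the other. With same-numbered arrays as a replicate block, 41 chromosome I genes were called higher and 6 lower, as without it, and 2671 genes in all; the numbers are not known to pair the arrays. A stricter filter, a lower floor, no trend and averaged probe sets changed neither the 41 higher nor the 6 lower chromosome I calls by over 1.5 times. The stricter filter left SEO1 unfitted, and the list of transporters and signalling then had a median of 0.06, with 1 called higher and 1 lower. Scaled to all probe sets, the sign turned for ERV46 (0.29), FRT2 (0.48), PAU8 (0.17), SPO7 (0.54) and YAL064W (0.54). It also turned for GPB2 (0.16), GEM1 (0.29), GCV3 (0.46), YAL037W (0.53) and EFB1 (0.34). Members above 0 then numbered 59, against 49. Without further scaling, the sign turned for FRT2 (0.14), SPO7 (0.20), YAL064W (0.20), GCV3 (0.12) and YAL037W (0.20). With quantile normalization, the sign turned for FRT2 (0.075), SPO7 (0.012), YAL064W (0.66), YAL064W-B (0.065), YAL037W (0.28) and GCV3 (0.026). With 1 array left out, differences that took either sign were FRT2 between -0.137 and 0.00191, FUN26 between -0.00441 and 0.13, SPO7 between -0.163 and 0.151, YAL064W between -0.0686 and 0.0528, YAT1 between -0.195 and 0.291. The same held for YAL037W, between -0.194 and 0.167, and GCV3, between -0.177 and 0.00972. The cause of these changes was not tested.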
